A study of Mus musculus with 15 samples.

Results

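The genes described here are the cytochrome P450 genes of family 4 and of every higher family, the enzymes that hydroxylate fatty acids, sterols, bile acid precursors, steroid hormones, retinoic acid and vitamin D. They were chosen by name from the probes that were not controls, as symbols that begin with Cyp, go on with a family number of 4 or higher, and end in a subfamily letter and a gene number. This gave 33 of the 22032 gene symbols of the array, measured by 40 probes. The rule itself used no measured value, but the members and the gene lists below were chosen with earlier results of these data known. Cyp4a12a, Cyp4a12b and Cyp51 end in other ways and were therefore outside the rule, and they are given later as a separate list.

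Liver RNA of male CD1 mice was hybridised to single-colour microarrays, 1 liver sample per array. Group C was injected with saline, and groups T and G with 25 μg of diethylnitrosamine (DEN) per g body weight at 15 days of age, a carcinogen that, given to infant mice, leads to liver tumours in adult life. All groups then received plasmid by hydrodynamic gene delivery, the rapid injection of a large volume into the tail vein, with 50 μg of plasmid DNA from week 28 to week 34. The plasmid was empty in groups C and T, and in group G it carried HA-tagged Gas1 (growth arrest specific 1) under the CAG promoter, which is active in many cell types. Livers were taken at week 35, whereas the age in the sample records is 10 weeks. The 15 arrays were counted as 13 mice, since arrays 3 and 4 of group C and arrays 4 and 5 of group T each carried 1 RNA code and were averaged. The sample titles number these arrays as separate replicates, so that each code stands for 1 mouse is an inference. This left 3 mice in the C mice (C1, C2, C3-4), 4 in the T mice (T1, T2, T3, T4-5) and 6 in group G (G1 to G6). The delivery reaches only a part of the hepatocytes, and nothing says whether a sample held tumour or the tissue around it.

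Between 15707 and 29765 spots per array were well above background by the scanner software, and no spot was saturated. The 8 hepatocyte markers were detected on all arrays, and so were Cyp4a10 and Cyp7a1. Gas1 itself lay at 6.53 ± 0.20 (SD, n = 3) in the C mice, 6.53 ± 0.09 (n = 4) in the T mice and 6.61 ± 0.11 (n = 6) in group G on the normalised log2 scale, and the difference between G and T was 0.08 ± 0.08 (SE, limma adjusted p = 0.765). None of its 3 probes was higher in group G past the threshold. Whether these probes lie within the insert of the plasmid is not given in the sources used here, so they do not check the labels of group G. All values below are normalised log2 intensities, on which a difference of 1 is a factor of 2. In bulk liver RNA, fewer cells of a type and less RNA per cell cannot be told apart.

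P450 enzymes are haem proteins that take electrons from the reductase Por in the endoplasmic reticulum, or from adrenodoxin (Fdx1) in mitochondria, and insert an oxygen atom into their substrate. The Cyp4a enzymes hydroxylate the far end of fatty acids, the first step of their breakdown to dicarboxylic acids, and are classical targets of the nuclear receptor PPAR alpha, which responds to fatty acids and fasting. Bile acids are made from cholesterol by a classical route that begins with Cyp7a1 and by an acidic route that begins with Cyp27a1 and continues with Cyp7b1, while Cyp8b1 steers the product to cholic acid. Bile acids hold this synthesis in check through the receptor Nr1h4 (FXR) and its target Nr0b2 (SHP), and several of these genes follow the circadian clock and feeding.

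Some members are close copies of each other, and the probes show how far the array can separate them. A matched pair of Cyp4a probes is shown for that reason, and then the probes of 3 genes from the bile acid and steroid routes, Cyp8b1, Cyp27a1 and Cyp17a1, on whose values the later results turn. Coordinates are those the files give for mm9. Cyp4a10 lies at chr4:115198463-115198522 on the plus strand and Cyp4a31 at chr4:115243923-115243982 on the plus strand, so the sites sit beside each other in the Cyp4a cluster. Within the transcripts the probes begin at base 1193 and base 1158. Capitals mark the 6 of 60 bases at which they differ, counted from 1 at the 5′ end of the probe and with the base of Cyp4a10 first: G1A, T8G, C36T, C46T, C48T and C57T.

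Cyp4a10: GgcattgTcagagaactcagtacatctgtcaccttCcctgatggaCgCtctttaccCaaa
Cyp4a31: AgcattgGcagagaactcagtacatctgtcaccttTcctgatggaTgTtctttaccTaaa

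The longest run without a difference was 27 bases in this pair, and 34 bases between the probes that lie nearest the 3′ end of the same genes. The values of Cyp4a10 and Cyp4a31 are therefore not fully separate measurements. Of the single-copy genes, Cyp8b1 was measured by a probe at chr9:121824595-121824654 on the minus strand (from base 769 of the transcript). Cyp27a1 was measured at chr1:74782203-74782262 on the plus strand (from base 784), by a probe printed on 10 spots of each array. The probe of Cyp17a1 begins at base 1247 of its transcript and spans chr19:46742594-46743207 on the minus strand, which is longer than the probe and so crosses an intron. These 3 sequences have no capitals, since nothing in them was compared.

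Cyp8b1: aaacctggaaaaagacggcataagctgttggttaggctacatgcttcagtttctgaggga
Cyp27a1: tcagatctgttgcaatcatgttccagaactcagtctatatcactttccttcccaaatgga
Cyp17a1: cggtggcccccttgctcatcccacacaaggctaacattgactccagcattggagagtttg

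Of the 33 members, 14 were well above background on all 15 arrays, 13 on some and 6 on none. The members detected on all arrays were Cyp4a10, Cyp4a31, Cyp4a32, Cyp4f13, Cyp4f14, Cyp4f15, Cyp4f17, Cyp4v3, Cyp7a1, Cyp7b1, Cyp8b1, Cyp17a1, Cyp27a1 and Cyp39a1. The 6 not detected on any array were the adrenal enzyme Cyp11b1, the vitamin D enzymes Cyp24a1 and Cyp27b1, and Cyp4f39, Cyp4f40 and Cyp4x1. A further 4 were detected on 1 or 2 arrays, namely Cyp11a1, Cyp11b2, Cyp26c1 and Cyp19a1 (aromatase). The differences of these 10 genes lie between values near the background and give no fold. Where only 1 of 2 groups had a detected array, the limit on the fold reached 1.01 for Cyp19a1 in group G over group T and stayed under 1 in all other cases.

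No member passed an adjusted p of 0.05 in any comparison. Between T and C, 0 of 33 members were called by limma, against 2.37% of all genes, and the smallest adjusted p was 0.055 (Cyp4f18). Between G and T, 0 of 33 were called against 0.132% of all genes, with a smallest adjusted p of 0.369, and between G and C, 0 of 33 against 0.427%, with a smallest adjusted p of 0.326. At an unadjusted p under 0.05, limma gave 5 members between T and C (15.2% of the members and 20.2% of all genes), 5 between G and T (15.2% and 10.8%) and 2 between G and C (6.06% and 13.3%). Those between T and C were Cyp4f18, Cyp7b1, Cyp17a1 and Cyp21a1, higher in T, and Cyp8b1, lower in T. Those between G and T were Cyp4a10, Cyp4a31, Cyp4a32 and Cyp4f15, higher in G, and Cyp24a1, lower in G but detected on no array. Those between G and C were Cyp4f18, higher in G, and Cyp8b1, lower in G. The methods' t-test gave 3, 1 and 0 members at that unadjusted threshold and 0 after Benjamini-Hochberg adjustment. The mice of T and C did not overlap for 3 members, Cyp4f18, Cyp7b1 and Cyp21a1, which is 9.09% of the members against 19.1% of all genes. Between G and T, and between G and C, the mice of every member overlapped, as against 3.1% and 5.95% of all genes that did not. The median difference over the 33 members was -0.05 between T and C, 0.02 between G and T and 0.03 between G and C, and over all genes it was 0.01, -0.01 and -0.00.

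**Figure D1:**
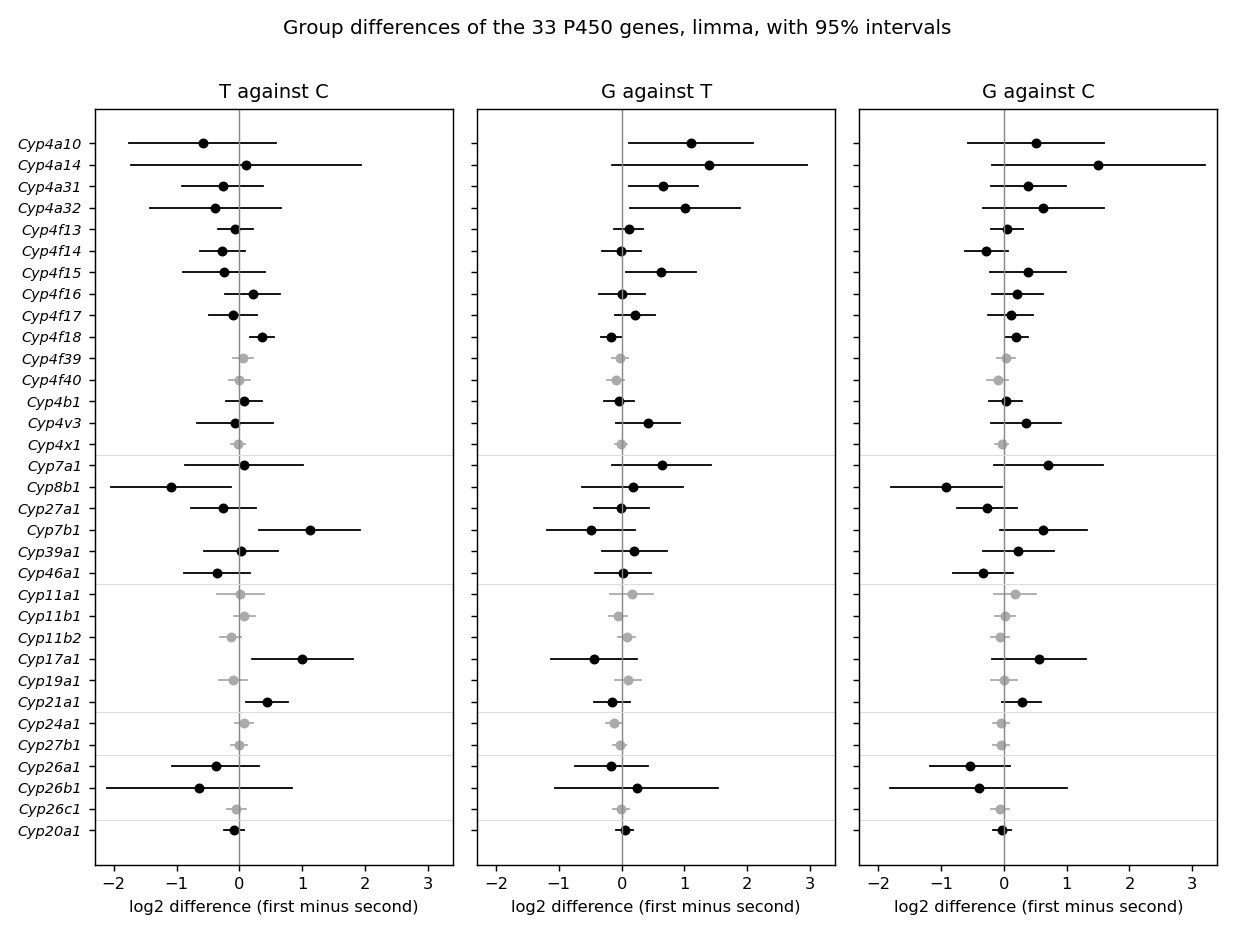
Log2 differences (x axis) of the 33 P450 genes in the 3 comparisons, as limma estimates with 95% intervals, ordered by role from fatty acid hydroxylases at the top to Cyp20a1. Grey genes were detected on at most 2 arrays and lie near 0, and the 4 Cyp4a genes lie between 0.66 and 1.40 in G against T.

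Among the fatty acid hydroxylases, the 4 Cyp4a genes had their lowest group medians in the T mice and their highest in group G. Cyp4a10 measured 7.11, 8.48 and 8.71 in the C mice and 8.73, 6.83, 7.10 and 7.41 in T1, T2, T3 and T4-5. In group G it ran from 7.73 to 9.37 with a median of 8.66. Thus 3 of the 4 T mice lay below every G mouse, and T1 lay among the G mice. The mean was 1.10 ± 0.46 (SE) higher in G than in T, a factor of 2.15, with limma adjusted p = 0.407. Between T and C it was 0.58 ± 0.54 lower in T (adjusted p = 0.603), within the spread of group C, and it moved from -1.08 without C1 to -0.28 without C3-4. Under median scaling it was -0.02.

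Cyp4a14, the Cyp4a gene known to react most strongly to PPAR alpha in mouse liver, had the widest range of all members. It measured 5.79, 8.07 and 7.37 in the C mice, of which C1 was not above background. In group T it measured 9.67 in T1 and 6.22, 6.24 and 6.61 in the others, and 3 of the 5 T arrays were above background. In group G it ran from 7.41 to 10.03 with a median of 8.64 on 6 detected arrays. Without T1 the G mice all lay above the T mice. The difference between G and T was 1.40 ± 0.71 (adjusted p = 0.508), and without T1 it was 2.23, at an adjusted p of 0.115. Between T and C the difference of 0.11 ± 0.84 turned to -0.72 without T1.

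Cyp4a32 measured 6.78, 7.74 and 7.87 in the C mice and 7.68, 6.62, 7.05 and 6.98 in the T mice, and ran from 6.999 to 9.36 in group G with a median of 7.86. The difference between G and T was 1.01 ± 0.40 (adjusted p = 0.394). Cyp4a31 measured 6.98, 7.49 and 7.88 in the C mice and 7.87, 6.61, 7.02 and 7.23 in the T mice, and ran from 7.47 to 8.42 in group G with a median of 7.67. Its difference between G and T was 0.66 ± 0.25 (adjusted p = 0.369). The 3 probes of Cyp4a31 did not move alike. The 3′ probe gave 1.24 ± 0.54 and the printed probe 0.56 ± 0.18, while the third, above background on 1 array, gave -0.00 ± 0.09. The 3 probes of Cyp4a10, all detected on every array, gave 1.30, 1.16 and 0.85, the printed probe being the lowest.

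The same mice were at the ends of these ranges. T1 was the highest and T2 the lowest T mouse for all 4 Cyp4a genes, and C1 was the lowest C mouse for all 4. On the printed probe of Cyp4a31, however, T2 (7.08) lay above T3 (6.91). Its 3′ probe, at 7.61 in T2, lay close to the 3′ probe of Cyp4a10 (7.58), so these 2 genes do not count separately here. T1 exceeded the next T mouse by a factor of 2.49 for Cyp4a10, 1.55 for Cyp4a31 and 1.55 for Cyp4a32. T1 also exceeded the next T mouse for the PPAR alpha targets Acot1 (1.60-fold), Pdk4 (1.56-fold), Ehhadh (1.41-fold) and Acaa1b (1.27-fold). The same held for Cyp4a12a (1.46-fold) and, by less, for Plin2 (1.145-fold). Other targets went the other way. T1 stood at 0.95-fold of the highest other T mouse for Fabp1, and was the lowest T mouse for Cpt1a (8.79) and Vnn1 (6.24). The clock output factor Dbp also set T1 apart, at 9.37 against 11.44 to 11.99 in the other T mice, and its part in the Cyp4a values was not tested. The median over the 4 Cyp4a genes was 1.06 between G and T and remained above 0 under all 28 other settings, from 0.86 to 1.56. Between T and C it was -0.33, but 0.11 under median scaling, which shifts bright genes upward in the DEN groups, and between G and C it was 0.57, from 0.19 on slide 1 alone to 1.08 under median scaling. Leaving out T2 took the number of members at an unadjusted p under 0.05 (limma) between G and T from 5 to 0, and leaving out T3 took it to 1. For all genes that number went from 2379 to 1829 without T2 and to 1928 without T3.

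**Figure D2:**
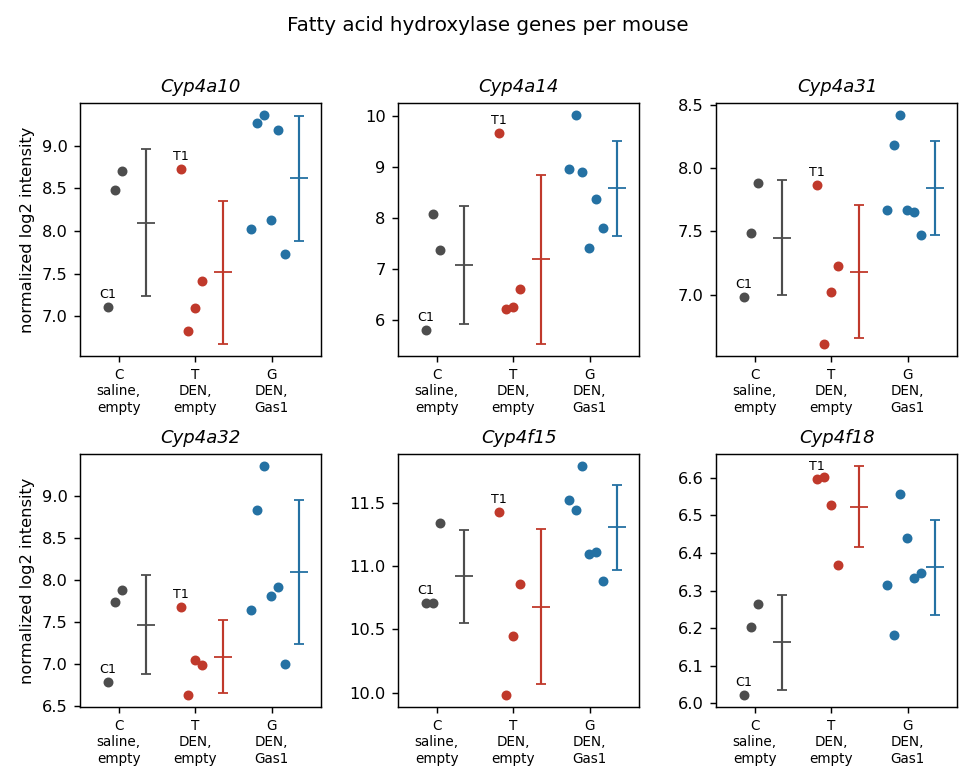
Normalised log2 intensity (y axis) of the 4 Cyp4a genes and of Cyp4f15 and Cyp4f18 in each mouse, by group, with the mean and SD beside the points. T1 lies above the other T mice and C1 below the other C mice in the 4 Cyp4a panels, and Cyp4f18 is the panel in which every T mouse lies above every C mouse.

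The Cyp4f enzymes hydroxylate leukotrienes and other eicosanoids as well as long fatty acids. Of the 8 members, 4 were detected on all arrays and 2 on none. Their differences ran from -0.27 to 0.36 between T and C (median -0.03, but 0.52 under median scaling), from -0.16 to 0.63 between G and T (median 0.00), and from -0.28 to 0.39 between G and C (median 0.08). Cyp4f15 stood at the upper end in G against T. It measured 10.71, 10.703 and 11.34 in the C mice and 11.42, 9.98, 10.45 and 10.85 in the T mice, and ran from 10.88 to 11.79 in group G with a median of 11.27. As with Cyp4a10, Cyp4a14 and Cyp4a31, T1 lay among the G mice and the other T mice lay below all of them. T4-5 (10.85) lay only just below G6 (10.88). For Cyp4a32 the pattern did not hold, since T3 (7.05) lay above G6 (6.999). The difference was 0.63 ± 0.26 (adjusted p = 0.400).

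Cyp4f18, known from neutrophils where it inactivates leukotriene B, was the member nearest the threshold, and it is named here after its values were seen. It measured 6.02, 6.20 and 6.27 in the C mice and 6.60, 6.60, 6.53 and 6.37 in the T mice, so that every T mouse lay above every C mouse, and it ran from 6.18 to 6.56 in group G. The difference between T and C was 0.36 ± 0.09 (adjusted p = 0.055). Only 1 of 4 C arrays was above background, against 4 of 5 T arrays and 5 of 6 G arrays. Its probes overlap in place except for their end bases and share a run of 29 bases, so they are not separate measurements. The leukotriene hydroxylase Cyp4f14 differed by -0.27 ± 0.16 between T and C (adjusted p = 0.390) and by -0.00 ± 0.14 between G and T with the spot of G4 left out, and Cyp4f13 by -0.06 ± 0.13 and 0.11 ± 0.11.

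Of the remaining family 4 genes, Cyp4v3, the mouse counterpart of the fatty acid hydroxylase lost in Bietti crystalline dystrophy of the retina, was detected on all arrays. It measured 11.70, 11.11 and 11.81 in the C mice and 11.67, 10.82, 12.04 and 11.37 in the T mice, and ran from 11.39 to 12.41 in group G. The groups overlapped, and the difference between G and T was 0.42 ± 0.24 (adjusted p = 0.560). Cyp4b1 was above background on 8 arrays, and its 3 differences lay between -0.04 and 0.07.

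Among the enzymes of bile acid synthesis, Cyp7a1, the rate-limiting enzyme of the classical route, varied more between mice than between groups. It measured 7.26, 7.18 and 8.70 in the C mice and 7.12, 7.97, 7.15 and 8.90 in the T mice. In group G it ran from 8.17 to 8.91 with a median of 8.32. The lower C and T mice lay below all G mice, while C3-4 and T4-5 lay near the top of the G range. The difference was 0.07 ± 0.43 between T and C (adjusted p = 0.957), 0.64 ± 0.37 between G and T (adjusted p = 0.565) and 0.71 ± 0.40 between G and C (adjusted p = 0.487). The 95% interval of the difference between T and C ran from -0.87 to 1.01, and that between G and T from -0.16 to 1.43. The sign between T and C changed under 6 of the 28 other settings.

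Cyp8b1, the sterol hydroxylase of cholic acid synthesis, had the largest negative difference of all members. It measured 9.54, 8.28 and 9.96 in the C mice, 8.67, 7.04, 8.44 and 8.55 in the T mice, and 7.92 to 8.94 in group G with a median of 8.27. C1 and C3-4 lay above all mice of both DEN groups, and C2 lay within them. The difference was -1.09 ± 0.44 between T and C, a factor of 0.47 (adjusted p = 0.189), and -0.91 ± 0.41 between G and C, a factor of 0.531 (adjusted p = 0.361). Between G and T it was 0.18 ± 0.37 (adjusted p = 0.908). The differences from group C remained negative under all 28 other settings, but shrank to -0.28 (T) and -0.20 (G) under median scaling, and neither passed the threshold when any single mouse was left out. Without T2 the difference between T and C was -0.71, and without C2 it was -1.58. Between G and C it was -0.56 without C3-4 and -1.40 without C2.

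Cyp27a1, the mitochondrial sterol hydroxylase that opens the acidic route, measured 9.38, 8.70 and 9.58 in the C mice, 9.41, 8.69, 8.80 and 8.96 in the T mice, and 8.58 to 9.27 in group G. The groups overlapped throughout. The difference was -0.25 ± 0.24 between T and C (95% interval from -0.77 to 0.26, adjusted p = 0.608) and -0.01 ± 0.20 between G and T (from -0.44 to 0.43, adjusted p = 0.995), and the sign of the latter changed under 8 of the 28 other settings.

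Cyp7b1, which hydroxylates the oxysterols of the acidic route, measured 12.97, 11.82 and 12.82 in the C mice and 13.58, 13.54 and 13.84 in T1, T2 and T4-5. The spot of T3 was marked as an outlier by the scanner software and was left out. Every measured T mouse lay above every C mouse, and the G mice spread over both ranges, from 12.50 to 13.88 with a median of 13.33. The difference between T and C was 1.12 ± 0.37, a factor of 2.17 (adjusted p = 0.123), and that between G and T was -0.49 ± 0.32 (adjusted p = 0.626). It remained above 0 between T and C under all other settings. Cyp39a1, which acts on oxysterols made in the brain, differed by 0.03 ± 0.27 between T and C and by 0.20 ± 0.24 between G and T, with the spot of G5 left out. The neuronal cholesterol hydroxylase Cyp46a1 measured 6.52, 7.72 and 7.81 in the C mice and 6.82 to 7.12 in the T mice. Its difference of -0.35 ± 0.24 (adjusted p = 0.451) was 0.06 under median scaling and became -0.77 at an adjusted p of 0.023 without C1, the single case in which leaving out a C or T mouse brought a member past the threshold.

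Of the steroid hormone enzymes, Cyp17a1 was the only one detected on all arrays. It makes androgen precursors in the gonads and is also transcribed in mouse liver. It measured 9.74, 10.48 and 9.84 in the C mice, 10.15, 11.25, 11.11 and 11.57 in the T mice, and 10.07 to 11.60 in group G with a median of 10.43. T1 lay below C2, and the other T mice lay above all C mice. The difference was 1.00 ± 0.37 between T and C, a factor of 2.004 (adjusted p = 0.160), -0.44 ± 0.32 between G and T (adjusted p = 0.658) and 0.56 ± 0.35 between G and C (adjusted p = 0.529). The adrenal enzyme Cyp21a1, named after its values were seen, measured 6.31, 6.36 and 6.66 in the C mice and 6.77 to 6.96 in the T mice without overlap. Its difference of 0.44 ± 0.15 (adjusted p = 0.140) came from 1 of its probes, which gave 0.86 ± 0.33, while the other was not above background on any array and gave 0.02 ± 0.07. Of the 6 adrenal and gonad markers measured, 3 were not detected on any array (Mc2r, Akr1b7 and Hsd3b1), and Star was detected on 2. Nr5a1, in contrast, was detected on all 15 arrays and enters the mean below. Its group means were 7.31 (C), 6.91 (T) and 7.12 (G). The list also holds Fdx1, which liver expresses as well. Without it, the mean log2 level per mouse over the 3 markers measured in every mouse ran from 6.35 to 6.59 in the C mice, 6.35 to 6.39 in the T mice and 6.35 to 6.51 in group G.

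**Figure D3:**
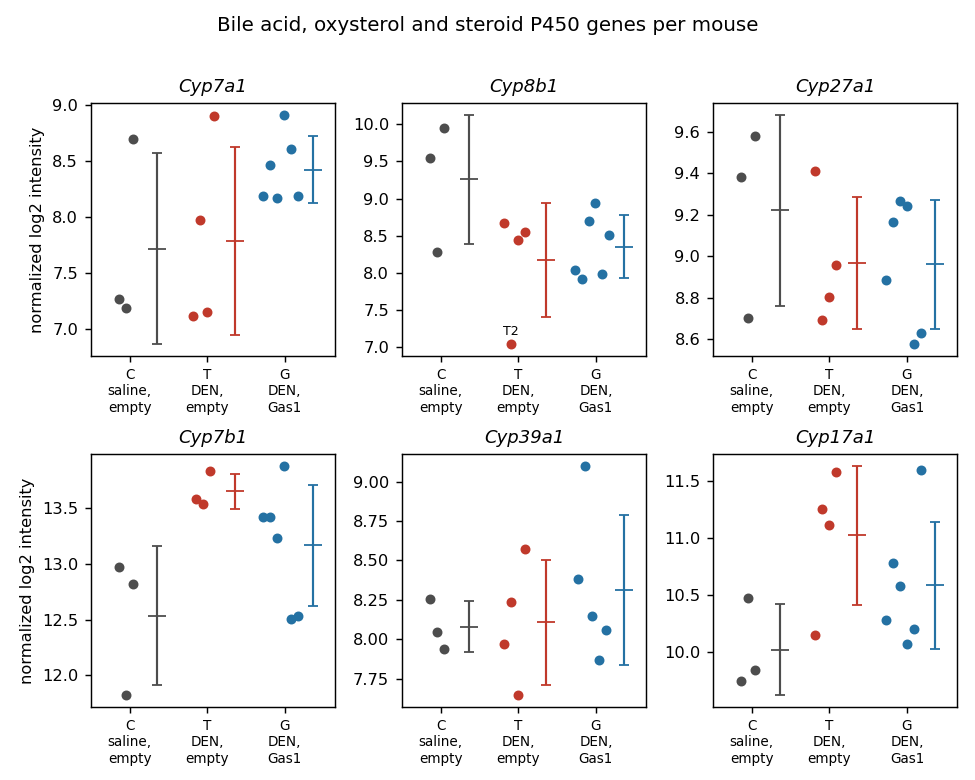
Normalised log2 intensity (y axis) of the bile acid, oxysterol and steroid P450 genes in each mouse, by group, with the mean and SD beside the points. In the Cyp7b1 panel the T mice lie above the C mice, and in the Cyp8b1 panel T2 lies apart at 7.04.

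The Cyp26 enzymes break down retinoic acid. Cyp26b1 had a large spread, at 6.99, 7.63 and 8.57 in the C mice, 7.85, 6.46, 7.37 and 6.70 in the T mice, and 6.10 to 8.73 in group G, where the spot of G4 was left out. G1 and G2 measured 8.70 and 8.73 and the other 3 measured G mice 6.10 to 6.64. Its difference was -0.64 ± 0.67 between T and C (adjusted p = 0.657) and 0.24 ± 0.59 between G and T (adjusted p = 0.926). Cyp26a1 differed by -0.38 ± 0.32 and -0.16 ± 0.27. Cyp20a1, an enzyme without a known substrate, was detected on 11 arrays and differed by -0.08, 0.05 and -0.03 in the 3 comparisons.

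Each slide held arrays of all 3 groups, with 2 C arrays per slide, so the differences could be read within slides. The slides are not separate sets of mice, since C3-4 and T4-5 had an array on each. The 4 Cyp4a genes were higher in G than in T on both slides, Cyp4a10 by 1.30 ± 0.45 on slide 1 and 1.08 ± 0.56 on slide 2, and Cyp4a14 by 1.69 and 1.58. Between T and C the slides gave unequal values. Cyp4a10 differed by -1.46 ± 0.50 on slide 1 and -0.18 ± 0.62 on slide 2, and Cyp4a14 by -1.35 ± 0.48 and 0.95 ± 0.99. Mouse C1 and mouse T1 were both on slide 2. Cyp8b1 was lower in T than in C by 1.34 ± 0.65 on slide 1 and by 1.18 on slide 2. On slide 2 it passed the threshold (difference -1.18 ± 0.11, limma adjusted p = 0.021). The lowest C and T mice for this gene, C2 (8.28) and T2 (7.04), were both on slide 1, so that call came without them. Between G and T the difference of Cyp8b1 was 0.90 ± 0.60 on slide 1 and -0.56 ± 0.10 on slide 2. Cyp7b1 was higher in T than in C by 1.35 and 0.75, and Cyp17a1 by 1.29 and 1.17. Cyp7a1 differed between G and T by -0.04 ± 0.52 and 0.72 ± 0.49. With slide as a term and the RNA code as a random block, 1 member, Cyp4f18, was called between T and C (0.36 ± 0.09, adjusted p = 0.041). That fit called 814 of all 22032 genes.

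**Figure D4:**
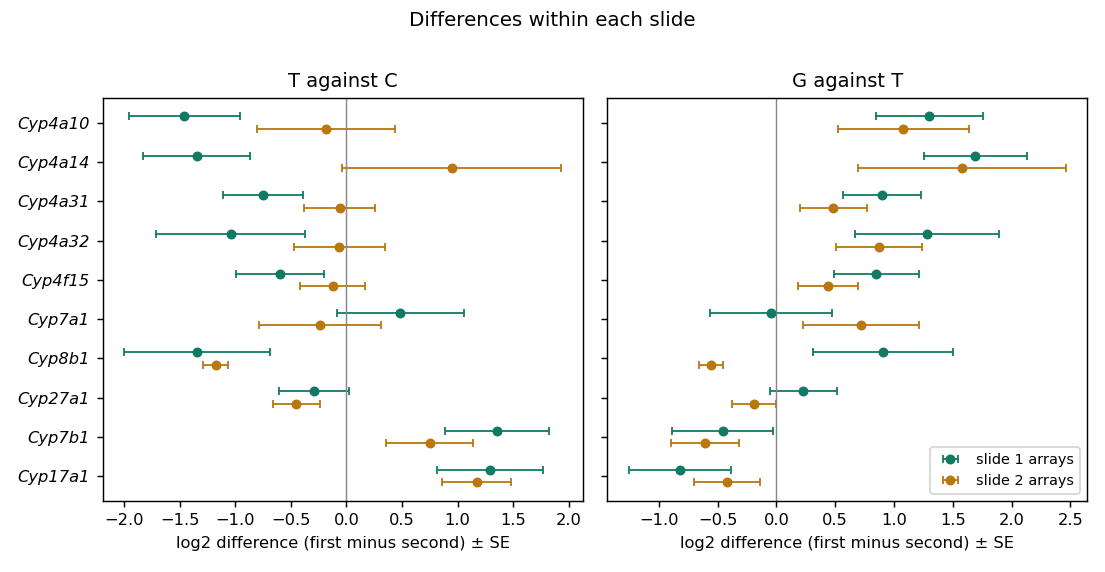
Log2 differences (x axis) with SE of 10 members from the arrays of slide 1 and of slide 2 alone, for T against C and G against T. The Cyp4a genes and Cyp4f15 lie above 0 in G against T on both slides, whereas Cyp4a14 in T against C and Cyp8b1 in G against T lie on opposite sides of 0.

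The P450 genes outside the name rule included the Cyp4a12 genes, the male-typical hydroxylases of arachidonic acid in mouse liver. Cyp4a12a measured 12.63, 12.21 and 12.61 in the C mice, 11.96, 11.24, 11.38 and 11.41 in the T mice, and 11.76 to 12.31 in group G with a median of 12.11. It fell by 0.99 ± 0.17 on the log2 scale in T against C (adjusted p = 0.018), every T mouse below every C mouse. Between G and T the difference was 0.58 ± 0.15 (adjusted p = 0.144), and it passed the threshold without T1 (0.73, adjusted p = 0.031), with the 15 arrays as separate mice (adjusted p = 0.041) and with the replicate as a block (adjusted p = 0.026). Under median scaling the difference between T and C was 0.00, and without C1, T3 or T4-5 its adjusted p was 0.071, 0.058 and 0.052. Cyp4a12b differed by -0.85 ± 0.21 between T and C (adjusted p = 0.052). Cyp51, the demethylase of cholesterol synthesis, differed by -0.60 ± 0.14 between G and C (adjusted p = 0.093). Of the 6 genes of this list on the array, 1 was called between T and C, 0 between G and T and 0 between G and C, against 2.37%, 0.132% and 0.427% of all genes. The medians were -0.33, 0.37 and -0.18 against 0.01, -0.01 and -0.00 over all genes. The study chose Cyp4a12a among the genes restored after Gas1 on these same samples, so its direction is not independent evidence.

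PPAR alpha and its targets were set beside the Cyp4a genes. Of 15 genes measured, 12 were lower and 3 higher in T against C, with a median difference of -0.48. Past the threshold 6 fell and 0 rose, while 2.37% of all genes were called in either direction. Under median scaling 0 fell and 2 rose past the threshold, and the median was 0.32. The genes that fell were the thioesterase Acot1 (-1.76 ± 0.34, limma adjusted p = 0.023), the pyruvate dehydrogenase kinase Pdk4 (-1.84 ± 0.41, adjusted p = 0.040), the peroxisomal enzymes Ehhadh (-1.33 ± 0.31, adjusted p = 0.048) and Acaa1b (-1.31 ± 0.22, adjusted p = 0.015), the lipid droplet protein Plin2 (-1.07 ± 0.21, adjusted p = 0.027) and the fatty acid binding protein Fabp1 (-0.96 ± 0.22, adjusted p = 0.041). Under median scaling, which left none of them called, the differences shrank to -1.14 for Pdk4, -0.94 for Acot1, -0.33 for Ehhadh, -0.32 for Acaa1b and -0.08 for Plin2, and Fabp1 turned to 0.10. Leaving out 1 mouse gave between 0 and 8 genes that fell, with 0 without C2, 1 without C1, T3 or T4-5, 2 without C3-4, and 3 without T2 or G1. Without T1 it was 8. The software's processed signal gave 0.

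Between G and T, 14 of the 15 were higher in G, with a median difference of 0.56 that stayed between 0.40 and 0.78 under the other settings, and 0 were called by limma. Acot1 differed by 1.29 ± 0.28 (adjusted p = 0.108) without overlap of the mice. Between G and C 0 of 15 were called and the median was -0.02. Acot1, Ehhadh and Acaa1b are also on the study's own list from these samples, so their direction is not independent evidence.

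**Figure D5:**
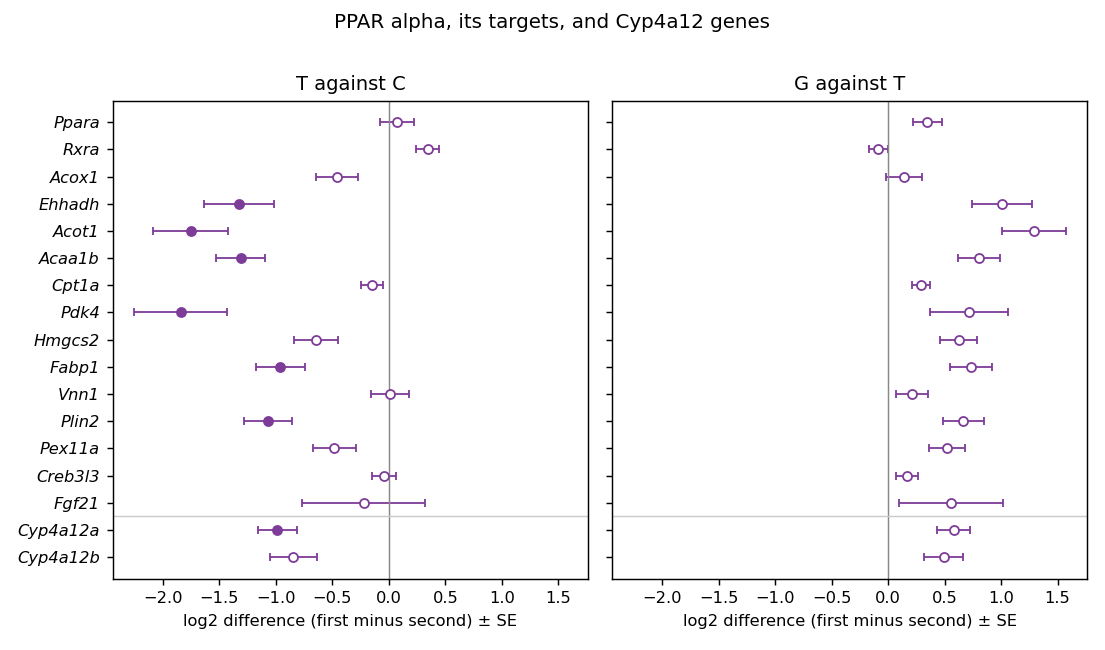
Log2 differences (x axis) with SE of PPAR alpha, its partner Rxra and 13 target genes, and the Cyp4a12 genes below the line, for T against C and G against T. Filled points passed an adjusted p of 0.05, which 7 genes did in T against C and 0 in G against T.

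Among the other bile acid synthesis enzymes 0 of 12 were called in any comparison. In T against C 11 of 12 were lower, with a median of -0.26, but 12 of 12 were higher under median scaling, with a median of 0.74. The bile acyl ligase Slc27a5 had the largest difference between T and C (-0.37 ± 0.13, adjusted p = 0.146), Slc27a2 between G and T (0.45 ± 0.18, adjusted p = 0.379) and Acox2 between G and C (-0.24 ± 0.09, adjusted p = 0.256). Of 11 feedback regulators 0 were called, and the medians were 0.01, -0.02 and 0.06. Under median scaling the medians were 0.85 between T and C and 0.84 between G and C. The largest difference between T and C was that of the receptor Nr1i3 (CAR), at -0.55 ± 0.33 (adjusted p = 0.398), and it was the largest between G and T too, at 0.47 ± 0.28 (adjusted p = 0.576). Between G and C it was that of Nr0b2 (-0.43 ± 0.15, adjusted p = 0.227).

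Of 12 sterol synthesis genes 0 were called between T and C and 0 between G and T, and 2 fell in G against C, namely Fdps (-1.01 ± 0.20, adjusted p = 0.0496) and Lss (-0.89 ± 0.17, adjusted p = 0.0465). The share of all genes called between G and C was 0.427%. Under median scaling Fdps and Lss were -0.17 and -0.19, neither called. Fdps lost its call when any single mouse other than T1 or T3 was left out, and Lss when 1 of C1, C3-4, T2, T4-5 or G1 to G5 was left out. Of 5 electron donors 0 were called, and Por differed by 0.81 ± 0.33 between T and C (adjusted p = 0.195) and by 0.93 ± 0.31 between G and C (adjusted p = 0.210), with every G mouse above every C mouse.

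The clock factors that act on P450 promoters included the gene with the largest difference of any list. Of 13 measured, 8 were higher and 5 lower in T against C, and 2.37% of all genes were called in either direction. Arntl (-1.04 ± 0.28, limma adjusted p = 0.068) and Nfil3 (-0.80 ± 0.29, adjusted p = 0.154) were lower without being called. Past the threshold 4 rose, namely Dbp (3.71 ± 0.67, limma adjusted p = 0.020), Tef (1.52 ± 0.33, adjusted p = 0.036), Nr1d1 (0.97 ± 0.18, adjusted p = 0.022) and Nr1d2 (0.96 ± 0.22, adjusted p = 0.041). All 4 stayed above 0 under the other settings, but none was called without T3 or T4-5, 1 was called without C1, and 2 without C2, C3-4 or T2. Dbp, Tef and Nr1d1 also rose in G against C, by 4.29 ± 0.62, 1.68 ± 0.31 and 1.49 ± 0.17, where Nr1d1 kept its call when each mouse was left out in turn, Dbp lost it without C1 or G2, and Tef lost it when any single mouse other than T1 or G6 was left out. The share of all genes called between G and C was 0.427%. Between G and T 0 of 13 were called. Dbp is a strongly rhythmic activator of liver enzyme genes, and Cyp7a1 is among its known targets. The hour at which livers were taken is not given in the sources used here, and the part of the clock in the values of Cyp7a1, Cyp8b1 and the Cyp4a genes was not tested.

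Of 9 retinoid genes 2 fell in T against C, the retinol dehydrogenase Rdh16 (-2.42 ± 0.29, adjusted p = 0.0041) and the retinal dehydrogenase Aldh1a1 (-0.84 ± 0.16, adjusted p = 0.020), although Aldh1a1 was 0.24 higher under median scaling and lost its call without C1, C2, T2 or T3. Rdh16 kept its call without each single mouse. The share of all genes called between T and C was 2.37%. In the other comparisons 0 of the 9 were called.

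Markers of the cells a liver sample can hold were read beside these genes. Of 8 hepatocyte markers, Ttr (-1.004 ± 0.12, adjusted p = 0.0042) and Ass1 (-0.60 ± 0.10, adjusted p = 0.011) fell in T against C, but both were higher under median scaling, by 0.18 and 0.49, and Ass1 lost its call without C2. Of the others, 3 were higher in T without being called, namely Apoa1 (0.55 ± 0.15, adjusted p = 0.066), Serpina1a (0.21) and Tat (0.23). Over the 7 markers measured in every mouse, the mean level ran from 14.37 to 14.51 in the mice of group C, 14.09 to 14.34 in those of group T and 14.12 to 14.41 in those of group G. Every T mouse thus lay below every C mouse, and the G mice overlapped both. The median difference of the 8 markers between T and C was -0.28, but 0.59 under median scaling. Of 6 macrophage markers, Emr1 rose by 0.31 ± 0.06 (adjusted p = 0.027, call lost without C1, C2, T2 or T3), and Cd68 differed by -0.25 ± 0.08 (adjusted p = 0.101). The mean level over the 5 macrophage markers measured in every mouse was 7.27 to 7.55, 7.49 to 7.67 and 7.40 to 7.79 in the C, T and G mice, so that the groups overlapped. Of 6 adrenal and gonad markers, Nr5a1 fell by 0.40 on the log2 scale (adjusted p = 0.049), but was 0.09 higher under median scaling and lost its call without 11 of the 13 mice in turn. None of 5 kidney tubule, 6 cholangiocyte, 5 endothelial and 6 stellate cell markers was called, and 3 of the 5 kidney markers (Umod, Slc34a1 and Lrp2) were not detected on any array. In G against T and in G against C, 0 markers of these lists were called. The shares of all genes called were 2.37% in T against C, 0.132% in G against T and 0.427% in G against C. The part of these markers in the differences of the P450 genes was not tested.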

How the data were processed

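Liver RNA (100 ng per sample) was labelled with Cy3 and hybridised to single-colour 60-base oligonucleotide arrays. The scanner intensities deposited by the authors are raw spot and background brightness from Agilent Feature Extraction 10.7.3.1, and probe positions are on mm9. A table of log2 values from the authors, quantile normalised, was used only as an alternative, and its median absolute difference from the values used here was 0.00274. The sample records name TRIzol for the extraction of RNA, and the methods a column kit.

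Mean spot intensities were background corrected with normexp (offset 50) and quantile normalised over the 59305 spots that were not controls, in R 4.3.3 with limma 3.58.1 (tables were read with the package data.table, version 1.17.8). The 3671 control spots were then left out, as were spots the software marked as outliers (218 to 3692 per array). Repeated spots were averaged. Where a symbol had several probes, each was centred on its own mean over the arrays, the centred values were averaged, and the mean of the probe means was added back, so that a missing spot does not shift the level. This gave 22032 symbols from 29522 probes. Quantile normalisation gives all arrays the same distribution, so a shift of most genes in 1 direction is not seen.

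Arrays sharing an RNA code were averaged, since their log2 differences had an SD of 0.146 (C3 and C4) and 0.143 (T4 and T5), against 0.213 to 0.435 for other pairs within a group. All 13 samples entered a single limma fit by group, with Benjamini-Hochberg adjustment over all genes and a threshold of 0.05, and the methods' t-test was run on the same values. The limma p-values set each group difference against the spread of these samples within groups, estimated over all 3 groups. The number of arrays limits the precision. The fit was checked on simulated data.

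The members and the gene lists were chosen with earlier results of these data known. Members were named in a comparison if they were the markers Cyp4a10 or Cyp7a1, the bile acid enzymes Cyp8b1 or Cyp27a1, or were among the 5 members with the largest differences of those detected on all arrays of either group. Genes of the other lists were named if called, or by the largest difference. Cyp4f15, Cyp4f18, Cyp4v3, Cyp21a1, Cyp46a1 and other members were named after their values were seen. The alternatives were other scalings and background corrections, probe rules, a filter on dim genes, slide, RNA code and replicate as blocks, and leaving out each mouse.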

Additional observations from a re-analysis of the deposited data

Results flagged for a closer look

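In 6 of 63 groups of 4 to 6 mice, 1 mouse lay further from the others than the 95% critical value of Dixon's test allows, and chance gives about 1 in 20 groups. Cyp4a14 measured 9.671 in T1, and the other T mice measured 6.22 to 6.61. Cyp8b1 measured 7.0362 in T2, and the other T mice 8.44 to 8.67. Cyp20a1 measured 6.4141 in T1, near the background, with 3 of 5 T arrays above it. The remaining cases also lay near the background of the arrays: Cyp4b1 at 6.1286 in G6, Cyp11a1 at 6.594 in G2, and Cyp4f40, which was detected on no array, at 6.0691 in G2.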

How the results depend on the processing

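No member was called between T and C in the values given above. Under other settings the count was 2 with median scaling (Cyp17a1, adjusted p = 0.025, and Cyp7b1, adjusted p = 0.042), 3 with the 15 arrays as separate mice (with Cyp4f18), 1 with slide as a term and the RNA code as a random block (Cyp4f18, correlation within a code 0.772), and 1 on slide 2 alone (Cyp8b1), and the cause was not tested. Of all 22032 genes, 523 were called in the values given above. In the same order, the other settings called 2876, 1949, 814 and 17 genes. Leaving out each mouse gave 0 to 1, namely Cyp46a1 without C1 and Cyp4f18 without G2 or G3 (adjusted p = 0.049 and 0.044). The same fits called 121 of all genes without C1, 457 without G2 and 489 without G3. Between G and C the count was 1 on slide 2 alone (Cyp8b1, adjusted p = 0.0021), where 6 of all genes were called, and 0 when any mouse was left out. Between G and T it was 0 under all 28 settings.

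With the replicate block the counts were 4 between T and C (Cyp17a1, Cyp4f18, Cyp7b1 and Cyp8b1), 1 between G and C (Cyp8b1) and 0 between G and T. Of all 22032 genes, the replicate block called 1606, 336 and 162 in these comparisons. That fit counts the 15 arrays as separate mice. Samples with the same number had deviations that correlated between -0.31 and 0.27, so the numbers do not pair the samples.

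Of the values of the members named by rule, 798 kept their direction and side of the threshold, 10 passed it, and 32 uncalled values changed sign. Since no member was called in the values given above, there was no call that could be lost or change sign. Over all genes, 259 were called higher and 264 lower between T and C, against 2861 and 15 under median scaling. The all-gene median then moved to 0.12, and with the software's processed signal to -0.40 (T against C) and -0.30 (G against C). Members near background limit what the arrays show.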
